A study of Arabidopsis thaliana with 119 samples.

Results

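The aquaporin family of Arabidopsis thaliana was described in rosette RNA of 5 natural accessions grown with ample or restricted water and nitrate. The members were chosen by gene ID, with earlier results of these data known, and are 35 of the 32833 genes in the count table. They include 13 plasma membrane intrinsic proteins (PIP) and 10 tonoplast intrinsic proteins (TIP). The rest are 9 nodulin 26-like intrinsic proteins (NIP) and 3 small basic intrinsic proteins (SIP). Names are written here with a point, so that PIP2.1 is the protein usually written with a semicolon. Of the 35 members, 27 had enough counts to be tested: all 13 PIP, 5 of 10 TIP, 6 of 9 NIP and all 3 SIP genes.

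Aquaporins are membrane channels that let water, and in some cases small neutral solutes, cross a membrane down its gradient. PIPs sit mainly in the plasma membrane, where PIP2 proteins are efficient water channels and PIP1 proteins often depend on pairing with a PIP2 to reach the membrane. TIPs sit in the membrane of the vacuole, and several carry urea or ammonia as well as water. NIPs carry metalloids such as boric acid and arsenite, and SIPs are found in the endoplasmic reticulum. Many PIPs are also set by phosphorylation, gating and trafficking, which RNA levels do not show.

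The reference accession Col-0 was grown beside Bur-0, Cvi-0, Tsu-0 and Sha, and the labels name no mutation or transgene in any of them. All plants were raised in short days on peat plugs without fertiliser and spent their last 23 days on the Phenoscope, a robot that moves, weighs and waters each pot. Whole rosettes were taken at 31 days, and the number of plants behind each library is not given in the sources used here. Control pots (W+N+) received a volume of 160.45 ml (± 7.96) at 5 mM nitrate, and drought pots (W-N+) a volume of 50.85 ml (± 4.67) at the same concentration. Nitrogen-deficient pots (W+N-) received a volume of 161.93 ml (± 11.07) at 0.5 mM, and pots under combined stress (W-N-) a volume of 50.7 ml (± 4.1) at 1.5 mM. Volume times concentration gives 802, 254, 81 and 76.1 µmol of nitrate for the respective treatments, so the drought plants also received less nitrate than the control, and combined stress matched nitrogen deficiency in nitrate and drought in water. Each of the 20 groups of accession and treatment had 6 libraries, except the Bur-0 control with 5. Sample names carry the code P3ID33 or P3ID34, with 3 libraries of each code in every group but the Bur-0 control, which had 3 and 2.

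A library held between 9698708 and 110420763 counts, 17998283 at the median. Levels are given as CPM, a gene's counts scaled to a fixed library total, with library sizes scaled by TMM, a trimmed-mean normalization. Changes are log2 differences ± standard error (SE) from edgeR's quasi-likelihood test over 20025 genes, with the accessions weighted equally in an averaged comparison, and a gene was called at a Benjamini-Hochberg adjusted p below 0.05. The p-values measure the spread between libraries, since the labels do not say which libraries came from separate plants. In whole rosettes, fewer cells of a type and less RNA per cell cannot be told apart. The same gene models served for every accession, which bears on levels compared between accessions. Earlier work on these data placed 4 libraries far from their groups. By the letters of the sample names these include the controls Cvi-0 W+N+ c and Col-0 W+N+ f. The others are Bur-0 W-N- c under combined stress and Tsu-0 W+N- d under nitrogen deficiency. Values without the 4 libraries are given for some of the results that they move, and not for all.

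Leaf markers matched the labelled tissue. The summed level of 5 mesophyll genes had a median of 54859 CPM in the control, 52438 in drought, 33764 in nitrogen deficiency and 38800 in combined stress. The sum of 6 vascular genes had medians of 213, 247, 256 and 268 CPM in the same order, and that of 4 guard cell genes 58.2, 63.6, 62.6 and 64.0. All 7 root genes, all 6 flower genes and all 5 seed genes had medians under 1 CPM, with highest sums of 1.17, 9.32 and 1.72 CPM, and 1 of the root genes was at 0 in every library. The mesophyll sum thus moved down, and the vascular sum up, with the same treatments as many aquaporins, and their part in the results below was not tested.

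Sequence bears first on which members can be told apart. PIP2.2 (AT2G37170) and PIP2.3 (AT2G37180) lie head to head on chromosome 2, 2612 bases apart, and their coding sequences were identical at 94.8% of 858 aligned bases, the closest pair in the family. Of the 50-base words in the annotated transcripts, 19.6% of those of PIP2.2 and 21.7% of those of PIP2.3 occurred in both genes, with an identical run of 242 bases, so short reads from that run could have come from either gene. The 120 bases in which the coding sequences differed most, at 16 positions, are given from the TAIR10.1 reference (RefSeq), with the differing bases in capitals and positions counted from the first coding base of each gene.
PIP2.2, coding bases 544 to 663: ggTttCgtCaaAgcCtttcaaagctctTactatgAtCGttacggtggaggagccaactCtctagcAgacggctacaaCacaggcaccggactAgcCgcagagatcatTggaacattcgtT
PIP2.3, coding bases 415 to 534: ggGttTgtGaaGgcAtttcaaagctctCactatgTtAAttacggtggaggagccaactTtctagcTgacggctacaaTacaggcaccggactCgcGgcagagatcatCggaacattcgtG
The next most alike pairs were NIP4.1 and NIP4.2 (88.1%), which had almost no counts, and PIP1.1 and PIP1.2 (87.6%).

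Promoters are shown for 4 members, chosen with their values known, to set the vacuolar pair TIP1.2 and TIP1.1, which fell in nitrogen deficiency, beside the boric acid channels NIP5.1 and NIP6.1, which rose. Each is the 250 bases before the annotated start in TAIR10.1, read 5′ to 3′ on the gene's own strand. The build behind the counts is not given in the sources used here. Capitals mark 3 short motifs searched on both strands, the ABRE core of abscisic acid response (ACGTG, or CACGT on the other strand), the DRE core of dehydration response (CCGAC, or GTCGG) and the GARP core bound by nitrate-responsive regulators (GAATC, or GATTC).
TIP1.2, chr3:9723905-9724154, minus strand: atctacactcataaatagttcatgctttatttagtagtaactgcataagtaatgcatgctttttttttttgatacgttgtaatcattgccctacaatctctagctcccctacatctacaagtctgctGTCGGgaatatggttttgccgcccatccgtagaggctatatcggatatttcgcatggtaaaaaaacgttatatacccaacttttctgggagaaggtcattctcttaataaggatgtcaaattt
TIP1.1, chr2:15445044-15445293, plus strand: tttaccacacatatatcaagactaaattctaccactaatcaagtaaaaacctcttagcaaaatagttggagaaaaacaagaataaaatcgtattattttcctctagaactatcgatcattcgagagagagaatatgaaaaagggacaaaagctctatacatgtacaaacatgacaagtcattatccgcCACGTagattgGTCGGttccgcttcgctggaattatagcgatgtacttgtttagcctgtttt
NIP5.1, chr4:6435397-6435646, minus strand: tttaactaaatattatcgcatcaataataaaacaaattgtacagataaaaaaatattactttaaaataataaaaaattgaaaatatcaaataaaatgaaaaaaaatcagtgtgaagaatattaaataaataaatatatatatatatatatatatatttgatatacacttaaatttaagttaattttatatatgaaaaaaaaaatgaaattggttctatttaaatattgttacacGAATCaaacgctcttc
NIP6.1, chr1:30352209-30352458, minus strand: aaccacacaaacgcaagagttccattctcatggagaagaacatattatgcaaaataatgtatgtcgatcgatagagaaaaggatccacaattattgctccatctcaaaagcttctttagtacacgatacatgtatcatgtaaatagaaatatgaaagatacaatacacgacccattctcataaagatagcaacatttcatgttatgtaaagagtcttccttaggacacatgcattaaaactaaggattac
The ABRE core was in 4 of the 35 member promoters, against 6288 of 27443 promoters of the same length (22.9%). The DRE core was also in 4 of 35, against 3285 of 27443, and the GARP core in 11 of 35, against 38.8%. A CACGTG holds the ABRE core on both strands and counts as 1 promoter, and no marked matches overlap in the promoters shown. A match describes these letters only.

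Water channels of the plasma membrane and the vacuole made up nearly all of the family's RNA. Expressed per kilobase of transcript, PIPs held a mean of 60.0% of the summed family level (48.5% to 68.3% over all libraries) and TIPs 35.6% (26.1% to 47.6%). SIPs held 2.53% (1.25% to 6.19%) and NIPs 1.87% (0.712% to 4.55%). TIP1.2 alone held 21.4% of the family level, PIP2.1 17.9% and PIP1.2 15.2%, followed by TIP1.1 (7.07%), TIP2.1 (5.47%), PIP1.4 (5.16%) and PIP1.1 (5.00%). At the other end, the 8 untested members had totals of 148 counts (NIP2.1), 74 (TIP1.3), 68 (TIP2.3), 43 (TIP5.1), 12 (TIP3.1), 2 (TIP3.2), 1 (NIP4.1) and 0 (NIP4.2) over all libraries. These include the seed TIP3 pair, the pollen TIP1.3, TIP5.1 and NIP4 genes and the root NIP2.1, named for where they are known to be expressed, and the 0 for NIP4.2 allows up to 0.00118 CPM over the whole series.

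The summed levels moved apart by subfamily. The TIP sum per kilobase had a median of 1309.8 CPM in the control (range 758.99 to 2479.1), 1204 in drought, 696.75 in nitrogen deficiency (430.7 to 1124.4) and 968.67 in combined stress. The PIP sum had medians of 1723, 1808, 1437 and 1697 in the same order, so it changed less. The NIP sum went the other way, with medians of 32.8, 43.6, 52.0 and 52.2, and the SIP sum was highest in nitrogen deficiency, with medians of 58.6, 57.9, 84.9 and 65.8. The whole family stood at medians of 3077, 3225, 2358 and 2811 CPM per kilobase. These sums are descriptions with no test, and the ranges of all 4 treatments overlap in each subfamily when the accessions are pooled.

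**Figure D1:**
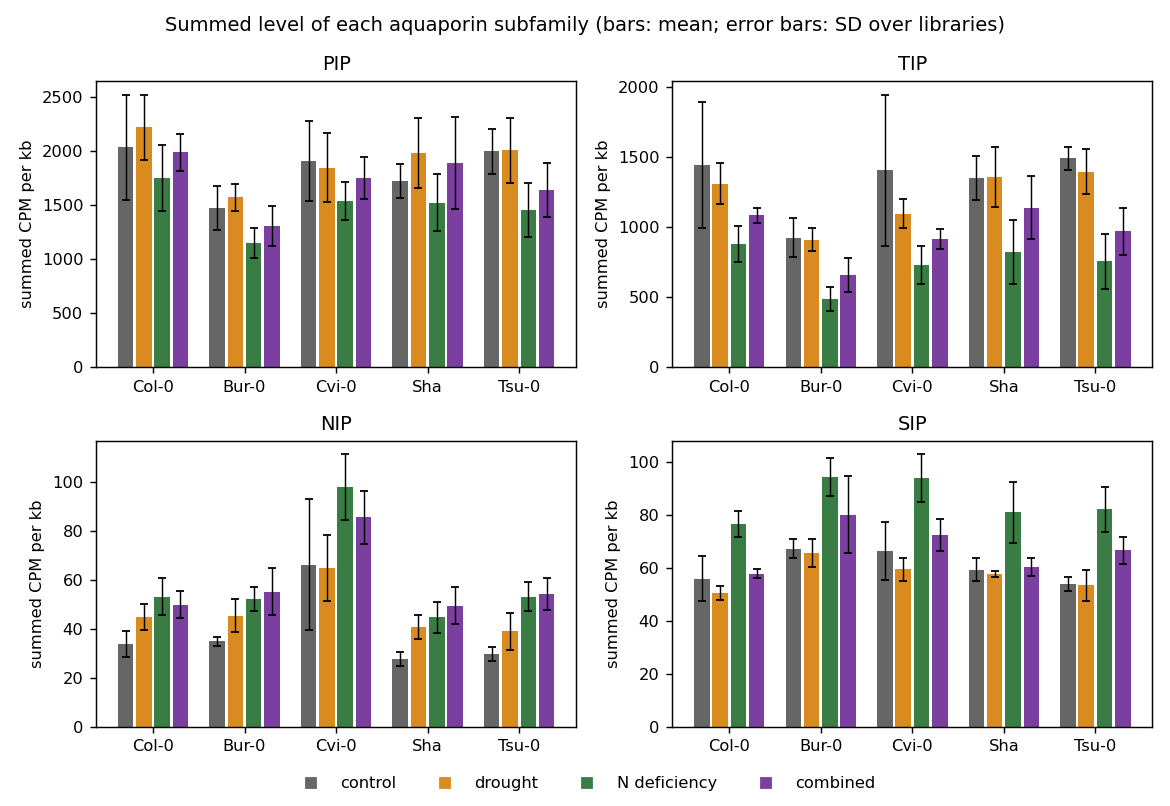
Summed CPM per kilobase of transcript for PIP, TIP, NIP and SIP genes in each accession and treatment, as bars of the mean with the standard deviation over 6 libraries (5 in the Bur-0 control). TIP bars drop most in nitrogen deficiency, from a treatment median of 1309.8 to 696.75, while NIP bars rise from 32.8 to 52.0.

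In nitrogen deficiency, 9 members rose and 15 fell among the 27 tested. Over all 20025 genes, 36.6% rose and 31.4% fell, so calls were common everywhere. The members' shares were 33.3% rising and 55.6% falling. The division ran by subfamily: PIPs gave 2 higher and 10 lower of 13, TIPs 1 higher and 4 lower of 5, NIPs 4 higher and 1 lower of 6, and SIPs 2 higher of 3. Median log2 changes were −0.326 for PIPs, −0.591 for TIPs, 0.961 for NIPs and 0.469 for SIPs, beside 0.045 for all genes tested. These subfamily figures are descriptions, with no test of one subfamily against another.

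In drought mainly plasma membrane and metalloid channels rose. Of 27 tested members 12 rose and 3 fell, where 10.6% of all genes rose and 13.1% fell. PIPs gave 7 higher and 1 lower, NIPs 4 higher and TIPs 1 higher and 2 lower. SIP1.1, SIP1.2 and SIP2.1 were at −0.09 ± 0.04, −0.09 ± 0.07 and −0.01 ± 0.06 and did not pass. Sizes were small, with a median log2 change of 0.053 over the members and 0.002 over all genes.

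Combined stress raised 11 members and lowered 10, against backgrounds of 30.6% and 26.6%. NIPs again gave 4 higher and 1 lower, TIPs 2 higher and 3 lower, SIPs 2 higher and 1 lower and PIPs 3 higher and 5 lower. Set directly against nitrogen deficiency, which received a like amount of nitrate but more water, combined stress had 15 members higher and 6 lower, where 19.6% of all genes were higher and 21.2% lower. All 8 PIP2 genes were among the 15. Set against drought, which received a like volume of water but more nitrate, 7 members were higher and 14 lower, where 25.1% of genes were higher and 20.9% lower, and 9 of the 14 were PIPs. The comparisons with the control share its 29 libraries.

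The combined change was also compared with the sum of the separate changes on the log2 scale. For 9 members it was higher than that sum and for 5 lower, against 15.3% and 14.8% of all genes. The 9 were 5 PIPs and 4 TIPs and the 5 were 3 NIPs and 2 SIPs, so in each subfamily the calls went one way. The water and nitrate supplies do not form a full factorial grid, because drought itself carried less nitrate and the combined treatment another concentration, and a departure from the sum is therefore not a test of a biological interaction.

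**Figure D2:**
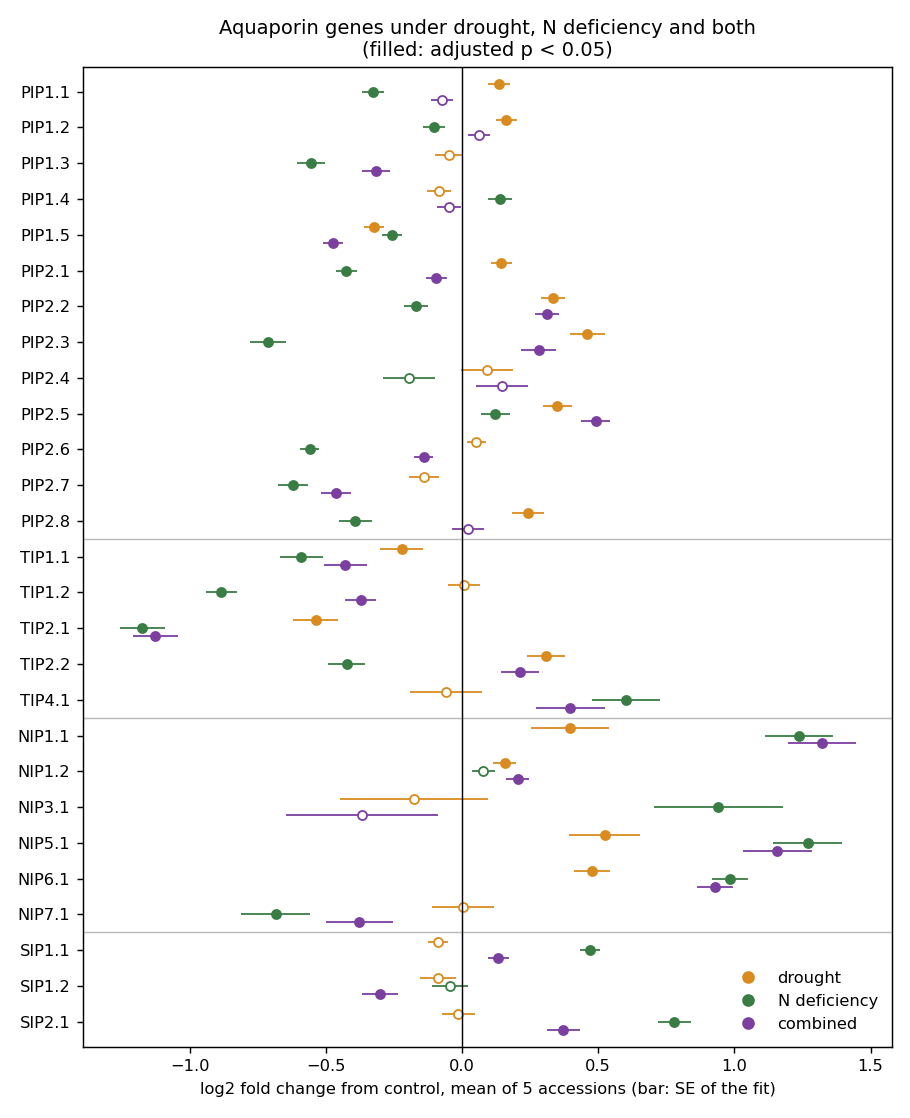
Log2 change ± SE of each of the 27 tested members in drought, nitrogen deficiency and combined stress against the control, averaged over 5 accessions, grouped by subfamily. TIP2.1 lies lowest in nitrogen deficiency at −1.17, and NIP5.1 and NIP1.1 lie highest at 1.27 and 1.24.

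PIP1 genes changed modestly. PIP1.2 (AT2G45960), an abundant PIP1 of leaves and roots, was the highest of them, and each set of values that follows gives the lowest, the median and the highest library of a group. In Col-0, PIP1.2 was at 541, 734 and 971 CPM in the control, at 703, 855 and 976 in drought, at 585, 740.1 and 814 in nitrogen deficiency and at 774, 821 and 896 in combined stress. In Bur-0, PIP1.2 was at 487, 524, 538, 546 and 627 CPM in the 5 control libraries, at 552, 612 and 647 in drought, at 414, 449 and 559.8 in nitrogen deficiency and at 431, 502 and 656 in combined stress. The treatments overlapped in both accessions, and Bur-0 lay lower than Col-0. In Cvi-0, PIP1.2 was at 544, 636 and 758 CPM in the control, at 583, 706 and 780.3 in drought, at 538, 618 and 729.7 in nitrogen deficiency and at 589, 703 and 804 in combined stress. In Sha, PIP1.2 was at 550.1, 581 and 679 CPM in the control, at 589, 732 and 808 in drought, at 484, 579 and 822 in nitrogen deficiency and at 531, 732 and 825 in combined stress. In Tsu-0, PIP1.2 was at 592, 675 and 749.9 CPM in the control, at 609, 702 and 864 in drought, at 445, 611 and 723 in nitrogen deficiency and at 499.5, 590.1 and 743 in combined stress. Stressed and control libraries overlapped for every accession and stress. On average PIP1.2 rose by 0.16 ± 0.04 in drought (edgeR adjusted p = 0.000938) and fell by 0.10 ± 0.04 in nitrogen deficiency (edgeR adjusted p = 0.0163).

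PIP1.5 (AT4G23400) was the member of lowest p in drought, and it fell. In Col-0, PIP1.5 was at 72.9, 86.9 and 102 CPM in the control, at 64.9, 77.3 and 81.003 in drought, at 69.3, 82.8 and 105 in nitrogen deficiency and at 59.5, 68.5 and 79.8 in combined stress. In Bur-0, PIP1.5 was at 90.9, 96.4, 112, 112 and 118 CPM in the 5 control libraries, at 68.9, 87.3 and 94.4 in drought, at 82.8, 96.5 and 108 in nitrogen deficiency and at 68.2, 77.9 and 85.2 in combined stress. Drought medians were below control medians in both, with overlapping libraries. In Cvi-0, PIP1.5 was at 104, 113 and 146 CPM in the control, at 83.7, 91.2 and 106 in drought, at 85.5, 89.3 and 101 in nitrogen deficiency and at 71.6, 74.7 and 79.8 in combined stress. In Sha, PIP1.5 was at 109.5, 119.8 and 134 CPM in the control, at 85.7, 98.8 and 111 in drought, at 80.4, 89.8 and 96.5 in nitrogen deficiency and at 79.7, 90.7 and 110.4 in combined stress. In Tsu-0, PIP1.5 was at 123, 145 and 158 CPM in the control, at 86.3, 107 and 134 in drought, at 95.2, 112 and 142 in nitrogen deficiency and at 76.3, 101 and 107 in combined stress. Combined stress lay below every control library in Bur-0, Cvi-0 and Tsu-0. Averaged, PIP1.5 fell by 0.32 ± 0.04 in drought (edgeR adjusted p = 4.42e-12), by 0.26 ± 0.04 in nitrogen deficiency and by 0.47 ± 0.04 in combined stress (edgeR adjusted p = 9.38e-22). It was the only PIP called lower in the averaged drought comparison, and its decrease in combined stress was called within all 5 accessions.

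The other PIP1 genes were all called in nitrogen deficiency. PIP1.3 fell by 0.55 ± 0.05 in nitrogen deficiency and was called in all 5 accessions, from −0.38 in Col-0 to −0.80 in Tsu-0, with Cvi-0 at −0.59, or −0.26 without the 4 libraries. PIP1.1 fell by 0.33 ± 0.04, whereas PIP1.4 rose by 0.14 ± 0.04, which made PIP1.4 and PIP2.5 the only PIPs called higher under that treatment. In averaged drought PIP1.1 was called higher (0.13), and PIP1.3 and PIP1.4 were not called. Group medians ranged from 139.74 to 283.6 CPM for PIP1.1, from 69.4 to 156 CPM for PIP1.3 and from 205 to 422 CPM for PIP1.4.

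PIP2.1 (AT3G53420), the most abundant plasma membrane channel here and a protein known to pass hydrogen peroxide and carbon dioxide as well as water, fell in nitrogen deficiency within every accession. In Col-0, PIP2.1 was at 749.9, 1088 and 1370.0 CPM in the control, at 935, 1215 and 1457 in drought, at 591, 837 and 1060.4 in nitrogen deficiency and at 807, 1009.5 and 1148 in combined stress. In Bur-0, PIP2.1 was at 526, 549, 674, 762 and 801 CPM in the 5 control libraries, at 651, 741 and 833 in drought, at 403, 452 and 603 in nitrogen deficiency and at 455, 587 and 696 in combined stress. In both, nitrogen deficiency had the lowest median of the 4 treatments. In Cvi-0, PIP2.1 was at 681, 921 and 1088 CPM in the control, at 658, 959.8 and 1184 in drought, at 514, 695 and 745 in nitrogen deficiency and at 710.3, 822 and 1005 in combined stress. In Sha, PIP2.1 was at 703, 783 and 946 CPM in the control, at 741, 954 and 1169 in drought, at 503, 689 and 823 in nitrogen deficiency and at 660.2, 915 and 1187 in combined stress. In Tsu-0, PIP2.1 was at 745, 927 and 1081 CPM in the control, at 770.1, 946 and 1224 in drought, at 458, 645 and 841 in nitrogen deficiency and at 602, 767 and 959 in combined stress. Nitrogen deficiency again had the lowest median in these accessions, but libraries overlapped with the control in all 5 with the codes of the sample names pooled. Within each code, every nitrogen-deficient library lay below every control library in Col-0, Bur-0, Cvi-0 and Tsu-0. In Sha this held for P3ID34 and not for P3ID33. On average PIP2.1 fell by 0.43 ± 0.04 in nitrogen deficiency (edgeR adjusted p = 1.97e-18) and rose by 0.14 ± 0.04 in drought. Its decrease of 0.10 ± 0.04 in combined stress (edgeR adjusted p = 0.0271) became −0.06 with an adjusted p of 0.107 in the same edgeR test without the 4 libraries named above.

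PIP2.6 (AT2G39010), a water channel of leaf veins, gave the lowest p of the family in nitrogen deficiency. In Col-0, PIP2.6 was at 245, 282 and 316 CPM in the control, at 280.1, 299.7 and 374 in drought, at 212, 238 and 305 in nitrogen deficiency and at 271, 306 and 343 in combined stress. In Bur-0, PIP2.6 was at 192, 214, 245, 269 and 279 CPM in the 5 control libraries, at 234, 262 and 331 in drought, at 139, 172 and 215 in nitrogen deficiency and at 195, 229.8 and 268 in combined stress. Stressed and control libraries overlapped in both, and in Bur-0 every nitrogen-deficient library lay below every drought library. In Cvi-0, PIP2.6 was at 206, 296 and 365 CPM in the control, at 216, 264 and 293 in drought, at 156, 168 and 193 in nitrogen deficiency and at 198, 215 and 235 in combined stress. In Sha, PIP2.6 was at 275, 315 and 358 CPM in the control, at 279, 331 and 369 in drought, at 179, 205 and 248 in nitrogen deficiency and at 250.04, 311 and 385 in combined stress. In Tsu-0, PIP2.6 was at 312, 350.1 and 386 CPM in the control, at 297, 352 and 432 in drought, at 123, 197 and 266 in nitrogen deficiency and at 236, 275 and 323 in combined stress. In Cvi-0, Sha and Tsu-0 every nitrogen-deficient library lay below every control library. The average decrease was 0.56 ± 0.03 on the log2 scale (edgeR adjusted p = 4.31e-29), with no call in drought (0.05 ± 0.03, edgeR adjusted p = 0.281). Combined stress was 0.42 ± 0.03 higher than nitrogen deficiency and 0.37 ± 0.05 above the sum of the separate changes (edgeR adjusted p = 8.47e-10), the lowest p of the family in that comparison.

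PIP2.3, first described as the dehydration-responsive gene RD28, moved both ways. In Col-0, PIP2.3 was at 18.8, 27.4 and 42.01 CPM in the control, at 31.7, 40.97 and 53.6 in drought, at 12.5, 15.8 and 23.8 in nitrogen deficiency and at 23.4, 33.4 and 43.4 in combined stress. In Bur-0, PIP2.3 was at 11.5, 14.3, 14.7, 15.3 and 16.4 CPM in the 5 control libraries, at 16.5, 20.2 and 25.1 in drought, at 6.93, 9.01 and 11.6 in nitrogen deficiency and at 11.8, 16.2 and 18.5 in combined stress. Drought libraries were all above the Bur-0 control. In Cvi-0, PIP2.3 was at 14.5, 31.6 and 44.8 CPM in the control, at 24.3, 33.5 and 41.1 in drought, at 15.3, 17.2 and 19.5 in nitrogen deficiency and at 24.9, 35.3 and 40.1 in combined stress. In Sha, PIP2.3 was at 15.8, 19.96 and 22.4 CPM in the control, at 23.04, 31.7 and 38.1 in drought, at 8.86, 12.7 and 17.4 in nitrogen deficiency and at 19.99, 28.6 and 42.9 in combined stress. In Tsu-0, PIP2.3 was at 11.7, 14.7 and 18.2 CPM in the control, at 15.02, 20.2 and 28.5 in drought, at 6.09, 8.198 and 10.2 in nitrogen deficiency and at 11.4, 18.9 and 23.1 in combined stress. Sha drought also lay above every control, and Tsu-0 nitrogen deficiency below every control, while the other stressed groups overlapped their controls. PIP2.3 rose 1.38-fold in drought (0.46 ± 0.06, edgeR adjusted p = 8.92e-09) and fell 1.64-fold in nitrogen deficiency (−0.71 ± 0.07, edgeR adjusted p = 5.42e-18). Its difference between combined stress and nitrogen deficiency was 0.99 ± 0.06 (edgeR adjusted p = 6.35e-26), or 1.99-fold, the lowest p of the family in that comparison.

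PIP2.3 was at 0.28 ± 0.06 in combined stress. Its neighbour PIP2.2 moved in the same directions on average. PIP2.2 was at 0.33 ± 0.04 in drought, −0.17 ± 0.04 in nitrogen deficiency and 0.31 ± 0.04 in combined stress, all called by edgeR. In nitrogen deficiency PIP2.2 was lower in 3 accessions and higher in 2, while PIP2.3 was lower in all 5. Reads of the shared run described above may be counted for either gene, so how far the pair moved separately cannot be stated. PIP2.5 was called higher in every treatment, by 0.35 ± 0.05 in drought, 0.12 ± 0.05 in nitrogen deficiency and 0.49 ± 0.05 in combined stress, the last also within each of the 5 accessions (0.33 to 0.63, where the lowest, in Cvi-0, was 0.56 without the 4 libraries). PIP2.7 fell by 0.62 ± 0.06 in nitrogen deficiency and 0.46 ± 0.06 in combined stress. PIP2.8 rose by 0.24 ± 0.06 in drought and fell by 0.39 ± 0.06 in nitrogen deficiency. PIP2.4, known mainly from roots, had group medians of only 0.846 to 2.43 CPM. Among the averaged comparisons it was called only for combined stress against nitrogen deficiency (0.34 ± 0.09). Without the 4 libraries it was also called in combined stress against the control (0.23, edgeR adjusted p = 0.0207).

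TIP1.2 (AT3G26520), the most abundant aquaporin transcript of these rosettes, separated the nitrogen-deficient libraries from the control in every accession. In Col-0, TIP1.2 was at 687, 954 and 1115 CPM in the control, at 852, 916 and 1049.7 in drought, at 506, 611 and 669 in nitrogen deficiency and at 707, 770.2 and 848 in combined stress. In Bur-0, TIP1.2 was at 591, 639, 681, 797 and 821 CPM in the 5 control libraries, at 729, 739 and 919.6 in drought, at 316, 333 and 466 in nitrogen deficiency and at 437, 566 and 601 in combined stress. Each nitrogen-deficient library lay below each control library in both. In Cvi-0, TIP1.2 was at 769.7, 907 and 1677 CPM in the control, at 684, 840.2 and 956 in drought, at 419, 443 and 619 in nitrogen deficiency and at 600.00, 652 and 723 in combined stress. In Sha, TIP1.2 was at 956, 1017 and 1188 CPM in the control, at 923, 1169 and 1336 in drought, at 427, 627 and 792 in nitrogen deficiency and at 709, 1013 and 1228 in combined stress. In Tsu-0, TIP1.2 was at 1161, 1262 and 1324 CPM in the control, at 1080.2, 1274 and 1525 in drought, at 479, 519.6 and 929 in nitrogen deficiency and at 677, 828 and 1052 in combined stress. That separation held in all 5 accessions, while drought overlapped the control in all 5. TIP1.2 fell 1.85-fold on average in nitrogen deficiency (−0.88 ± 0.06, edgeR adjusted p = 2.93e-27), from −0.58 in Col-0 to −1.08 in Cvi-0, and was at 0.01 ± 0.06 in drought. Combined stress was intermediate at −0.37 ± 0.06, and 0.51 ± 0.06 above nitrogen deficiency.

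TIP1.1 (AT2G36830), a vacuolar channel for water and urea, also fell in nitrogen deficiency, with more scatter. In Col-0, TIP1.1 was at 241, 365 and 733 CPM in the control, at 280.4, 344 and 418 in drought, at 189, 235 and 335 in nitrogen deficiency and at 262, 284 and 300.3 in combined stress. In Bur-0, TIP1.1 was at 171, 195, 219, 236 and 262 CPM in the 5 control libraries, at 150.2, 189 and 209 in drought, at 121, 129.7 and 185 in nitrogen deficiency and at 117, 148 and 247 in combined stress. The Col-0 control had the widest spread of these groups. In Cvi-0, TIP1.1 was at 259, 319 and 718 CPM in the control, at 246, 286 and 303 in drought, at 209, 228 and 382 in nitrogen deficiency and at 235, 285 and 296 in combined stress. In Sha, TIP1.1 was at 280.4, 294 and 434 CPM in the control, at 253, 319.6 and 372 in drought, at 157, 199 and 355 in nitrogen deficiency and at 191, 255 and 291 in combined stress. In Tsu-0, TIP1.1 was at 229, 274 and 300.4 CPM in the control, at 210.2, 221 and 275 in drought, at 131, 166 and 283 in nitrogen deficiency and at 151, 203 and 258 in combined stress. Libraries overlapped with the control in every accession and treatment. TIP1.1 fell by 0.59 ± 0.08 in nitrogen deficiency (edgeR adjusted p = 9.59e-11) and by 0.43 ± 0.08 in combined stress. Its decrease of 0.22 ± 0.08 in drought (edgeR adjusted p = 0.028) was −0.12 without the 4 libraries, with an adjusted p of 0.145 in the same edgeR test. In nitrogen deficiency the Cvi-0 value of −0.60 was −0.28 without them (edgeR adjusted p = 0.0908).

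TIP2.1 (AT3G16240), a vacuolar channel that passes ammonia, had the largest decrease of the family in nitrogen deficiency. In Col-0, TIP2.1 was at 197, 325 and 669 CPM in the control, at 176, 229 and 295 in drought, at 110.3, 148 and 196 in nitrogen deficiency and at 137, 156 and 190.2 in combined stress. In Bur-0, TIP2.1 was at 152, 173, 185, 244 and 250.2 CPM in the 5 control libraries, at 130.2, 148 and 191 in drought, at 77.2, 87.2 and 139.5 in nitrogen deficiency and at 69.5, 91.3 and 142 in combined stress. Each nitrogen-deficient and each combined-stress library lay below each control library in both. In Cvi-0, TIP2.1 was at 211, 310.2 and 647 CPM in the control, at 166, 199 and 251 in drought, at 118, 127 and 181 in nitrogen deficiency and at 119.8, 152 and 165 in combined stress. In Sha, TIP2.1 was at 258, 292 and 417 CPM in the control, at 173, 239.9 and 306 in drought, at 103, 171 and 261 in nitrogen deficiency and at 118.9, 160.1 and 193 in combined stress. In Tsu-0, TIP2.1 was at 294, 298 and 362 CPM in the control, at 146, 223 and 249.6 in drought, at 84.97, 119.5 and 171 in nitrogen deficiency and at 98.4, 115 and 182 in combined stress. Combined stress was below every control library in all 5 accessions and nitrogen deficiency in 4, the exception being Sha. The change was 0.05 ± 0.08 between combined stress and nitrogen deficiency (edgeR adjusted p = 0.683). Drought by itself lowered TIP2.1 by 0.54 ± 0.08 (edgeR adjusted p = 1.41e-07), and the combined change was 0.59 ± 0.12 above the sum of the separate ones. Within accessions the drought decrease was called in Col-0 (−0.64), Cvi-0 (−0.78) and Tsu-0 (−0.57). Without the 4 libraries it was −0.43 in both Col-0 and Cvi-0, with edgeR adjusted p of 0.115 and 0.232, so both calls were lost when 1 control library of each accession was left out. The gene overlaps AT3G16250 on the other strand by 120 bases and AT3G03265 by 445 bases, and reads there are uncertain. AT3G16250 had a median of 62.1 CPM and fell by 0.42 ± 0.04 in nitrogen deficiency, and AT3G03265 had a median of 0.319 CPM.

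TIP2.2 (AT4G17340), another TIP2 of the vacuolar membrane, was set apart by accession. In Col-0, TIP2.2 was at 100.4, 133 and 216 CPM in the control, at 141, 151 and 204 in drought, at 107, 118 and 144 in nitrogen deficiency and at 150.5, 161 and 194 in combined stress. In Bur-0, TIP2.2 was at 35.2, 37.7, 43.1, 46.6 and 46.8 CPM in the 5 control libraries, at 42.1, 48.9 and 55.6 in drought, at 17.9, 20.5 and 28.5 in nitrogen deficiency and at 28.6, 35.9 and 62.9 in combined stress. The groups did not overlap between these accessions. In Cvi-0, TIP2.2 was at 39.2, 58.9 and 66.3 CPM in the control, at 54.6, 65.6 and 76.9 in drought, at 45.2, 51.3 and 70.4 in nitrogen deficiency and at 58.2, 78.6 and 95.8 in combined stress. In Sha, TIP2.2 was at 18.8, 27.8 and 30.3 CPM in the control, at 30.99, 41.95 and 42.99 in drought, at 18.4, 20.7 and 30.4 in nitrogen deficiency and at 27.3, 37.5 and 57.8 in combined stress. In Tsu-0, TIP2.2 was at 38.3, 42.96 and 55.1 CPM in the control, at 48.4, 50.3 and 66.5 in drought, at 17.4, 23.3 and 41.1 in nitrogen deficiency and at 31.5, 41.4 and 51.5 in combined stress. All Col-0 libraries, of every treatment, lay above all libraries of the 4 other accessions. Averaged, TIP2.2 rose by 0.31 ± 0.07 in drought, fell by 0.42 ± 0.07 in nitrogen deficiency (edgeR adjusted p = 3.94e-08) and rose by 0.21 ± 0.07 in combined stress. TIP4.1, a urea channel when tested in yeast, was the only TIP called higher in nitrogen deficiency (0.60 ± 0.13, edgeR adjusted p = 1.29e-05), at group medians of 0.783 to 7.46 CPM.

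**Figure D3:**
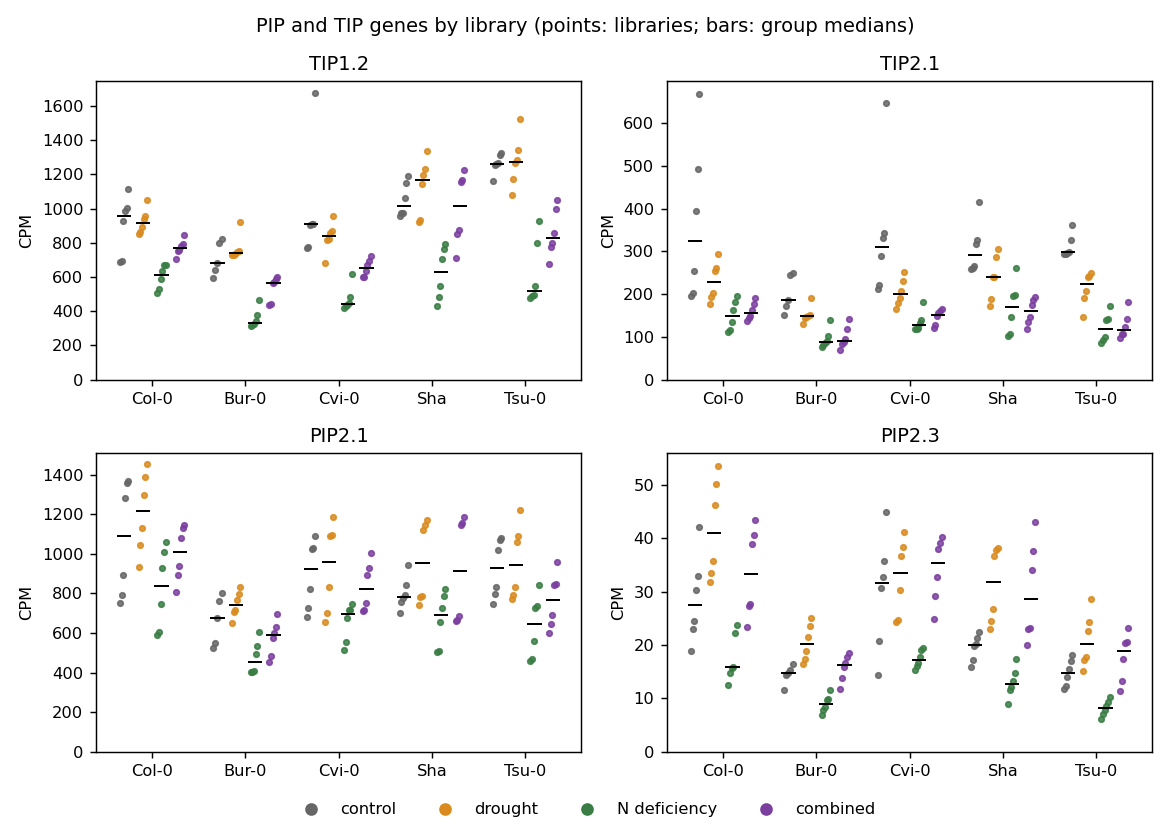
CPM of TIP1.2, TIP2.1, PIP2.1 and PIP2.3 in each library, by accession and treatment, as points with the group median as a line. TIP1.2 points of nitrogen deficiency lie below all control points in 5 of 5 accessions. Those of PIP2.1 overlap the control in all 5 with the codes P3ID33 and P3ID34 pooled, as drawn here.

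NIP6.1 (AT1G80760), a boric acid channel that in shoots acts in delivery to young leaves, was the most abundant NIP. In Col-0, NIP6.1 was at 15.05, 24.1 and 33.01 CPM in the control, at 25.5, 32.4 and 39.1 in drought, at 29.4, 44.5 and 51.5 in nitrogen deficiency and at 29.6, 36.7 and 43.8 in combined stress. In Bur-0, NIP6.1 was at 13.9, 15.6, 16.7, 20.97 and 21.01 CPM in the 5 control libraries, at 20.9, 29.7 and 32.9 in drought, at 29.3, 37.1 and 43.6 in nitrogen deficiency and at 29.8, 41.3 and 49.5 in combined stress. Nitrogen-deficient and combined-stress libraries were all above the Bur-0 control. In Cvi-0, NIP6.1 was at 26.9, 48.1 and 108 CPM in the control, at 34.7, 47.8 and 69.7 in drought, at 67.9, 87.7 and 98.4 in nitrogen deficiency and at 58.6, 71.996 and 83.05 in combined stress. In Sha, NIP6.1 was at 11.7, 14.8 and 18.5 CPM in the control, at 22.96, 28.6 and 37.4 in drought, at 25.1, 34.03 and 37.95 in nitrogen deficiency and at 26.3, 35.03 and 44.9 in combined stress. In Tsu-0, NIP6.1 was at 12.6, 17.1 and 20.3 CPM in the control, at 15.4, 22.8 and 29.6 in drought, at 32.5, 35.3 and 48.3 in nitrogen deficiency and at 31.99, 37.2 and 45.4 in combined stress. In Sha and Tsu-0 both groups were likewise above every control library, whereas Cvi-0, with the highest levels, overlapped. There a control library at 108 CPM lay above every library of both groups, and the lowest combined-stress library, at 58.6 CPM, was also below a control library at 59.6. NIP6.1 rose 1.98-fold in nitrogen deficiency (0.98 ± 0.07, edgeR adjusted p = 3.14e-26) and by 0.93 ± 0.07 in combined stress, where it had the lowest p of the family (edgeR adjusted p = 6.2e-24). Drought raised it by 0.48 ± 0.07, and the combined change was 0.53 ± 0.09 below the sum of the separate ones. In Cvi-0 the increase of 0.65 in nitrogen deficiency was 1.09 without the 4 libraries, and that of 0.38 in combined stress was 0.82. Its transcript overlaps that of AT1G80750 on the other strand by 26 bases. AT1G80750, at a median of 38.6 CPM, fell by 0.55 ± 0.055 in nitrogen deficiency.

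NIP5.1 (AT4G10380), a boric acid uptake channel best known from roots under boron limitation, also rose, with a lower CPM than NIP6.1 in every group. In Col-0, NIP5.1 was at 0.913, 3.70 and 4.37 CPM in the control, at 4.38, 6.17 and 9.99 in drought, at 6.57, 7.78 and 10 in nitrogen deficiency and at 5.17, 8.21 and 11.1 in combined stress. In Bur-0, NIP5.1 was at 2.68, 3.60, 5.45, 5.91 and 6.83 CPM in the 5 control libraries, at 4.79, 6.52 and 8.13 in drought, at 8.92, 10.7 and 12.5 in nitrogen deficiency and at 7.50, 8.74 and 10.2 in combined stress. Nitrogen-deficient and combined-stress libraries lay above every control library in both. In Cvi-0, NIP5.1 was at 2.71, 5.98 and 25.9 CPM in the control, at 5.65, 7.69 and 9.03 in drought, at 10.4, 11.8 and 16.3 in nitrogen deficiency and at 9.97, 12.7 and 19.7 in combined stress. In Sha, NIP5.1 was at 0.692, 2.01 and 4.49 CPM in the control, at 3.60, 5.16 and 7.30 in drought, at 4.82, 6.29 and 13.3 in nitrogen deficiency and at 4.92, 7.14 and 7.61 in combined stress. In Tsu-0, NIP5.1 was at 2.12, 3.15 and 5.73 CPM in the control, at 2.74, 3.48 and 7.40 in drought, at 6.74, 13.1 and 14.7 in nitrogen deficiency and at 6.45, 9.97 and 12.9 in combined stress. The separation held in 4 of 5 accessions for both treatments, and in Cvi-0 a control library at 25.9 CPM was the highest of all. NIP5.1 rose 2.41-fold in nitrogen deficiency (1.27 ± 0.13, edgeR adjusted p = 6.02e-16), by 1.16 ± 0.13 in combined stress and by 0.52 ± 0.13 in drought. In Cvi-0 it was not called in nitrogen deficiency (0.48) or combined stress (0.56). Without the 4 libraries, of which that control library is a member, the Cvi-0 values were 1.1992 (edgeR adjusted p = 1.37e-05) and 1.28 (edgeR adjusted p = 2.13e-05).

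NIP1.1 (AT4G19030), known to let arsenite into roots, was under 1 CPM in the controls of Col-0, Bur-0 and Sha and highest in Cvi-0. In Col-0, NIP1.1 was at 0.114, 0.285 and 0.575 CPM in the control, at 0.109, 0.264 and 0.453 in drought, at 0.535, 0.957 and 1.69 in nitrogen deficiency and at 0.59, 0.918 and 1.47 in combined stress. In Bur-0, NIP1.1 was at 0.256, 0.262, 0.506, 0.636 and 0.717 CPM in the 5 control libraries, at 0.177, 0.295 and 0.714 in drought, at 0.816, 1.41 and 1.47 in nitrogen deficiency and at 0.459, 1.06 and 1.304 in combined stress. Bur-0 nitrogen deficiency lay above its control. In Cvi-0, NIP1.1 was at 4.43, 6.54 and 7.40 CPM in the control, at 5.29, 6.84 and 8.41 in drought, at 4.85, 6.89 and 8.50 in nitrogen deficiency and at 4.79, 6.03 and 7.97 in combined stress. In Sha, NIP1.1 was at 0.0576, 0.256 and 0.41 CPM in the control, at 0.414, 0.63 and 0.811 in drought, at 0.225, 0.722 and 1.37 in nitrogen deficiency and at 0.835, 1.11 and 1.23 in combined stress. In Tsu-0, NIP1.1 was at 0.638, 1.50 and 2.13 CPM in the control, at 2.21, 2.85 and 3.06 in drought, at 3.01, 3.72 and 4.78 in nitrogen deficiency and at 3.91, 5.18 and 6.02 in combined stress. Every Tsu-0 stress library was above every Tsu-0 control library, and no stress group stood apart in Cvi-0. Averaged, NIP1.1 rose 2.36-fold in nitrogen deficiency (1.24 ± 0.13, edgeR adjusted p = 9.79e-16) and 2.5-fold in combined stress (1.32 ± 0.12). Combined stress exceeded drought by 0.92 ± 0.12 (edgeR adjusted p = 2.09e-10), the lowest p of the family in that comparison. The drought change of 0.40 ± 0.14 (edgeR adjusted p = 0.032) was 0.36 without the 4 libraries, with an edgeR adjusted p of 0.0522.

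NIP1.2 (AT4G18910), which in roots carries aluminium malate, changed little. In Col-0, NIP1.2 was at 15.1, 16.5 and 19.4 CPM in the control, at 18.6, 19.5 and 20.99 in drought, at 15.8, 18.8 and 19.4 in nitrogen deficiency and at 18.7, 20.6 and 23.7 in combined stress. In Bur-0, NIP1.2 was at 21.5, 22.4, 22.98, 23.6 and 24.97 CPM in the 5 control libraries, at 20.6, 25.3 and 29.4 in drought, at 18.004, 19.2 and 24.6 in nitrogen deficiency and at 19.5, 22.7 and 25.7 in combined stress. Both accessions overlapped in every treatment comparison. In Cvi-0, NIP1.2 was at 13.7, 17.1 and 21.4 CPM in the control, at 17.3, 19.3 and 21.6 in drought, at 19.4, 21.4 and 24.5 in nitrogen deficiency and at 16.5, 21.8 and 26.5 in combined stress. In Sha, NIP1.2 was at 15.3, 16.7 and 18.2 CPM in the control, at 14.4, 16.8 and 19.6 in drought, at 13.6, 17.6 and 22.8 in nitrogen deficiency and at 16.6, 19.4 and 27.03 in combined stress. In Tsu-0, NIP1.2 was at 14.4, 16.6 and 23.95 CPM in the control, at 16.7, 21.997 and 26.5 in drought, at 14.7, 19.3 and 22.2 in nitrogen deficiency and at 16.5, 19.96 and 23.6 in combined stress. Stressed and control libraries overlapped in all 5 accessions. NIP1.2 rose by 0.16 ± 0.04 in drought and 0.21 ± 0.04 in combined stress (edgeR adjusted p = 1.64e-05), and was at 0.08 ± 0.04 in nitrogen deficiency (edgeR adjusted p = 0.0972).

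The remaining NIPs were near the limit of measurement. NIP3.1 had group medians of 0.0228 to 0.584 CPM and rose by 0.94 ± 0.24 in nitrogen deficiency. It was 1.31 ± 0.25 lower in combined stress than in nitrogen deficiency (edgeR adjusted p = 6.46e-06). Of its 50-base words 9.0% also occurred in AT2G21020, so short reads there could have come from either gene. NIP7.1, a boric acid channel of anthers, had group medians of 0.216 to 2.5 CPM and was the only NIP to fall in nitrogen deficiency (−0.69 ± 0.13, edgeR adjusted p = 9.51e-07). Its higher level in combined stress than in nitrogen deficiency (0.31 ± 0.13, edgeR adjusted p = 0.0482) was 0.30 without the 4 libraries, with an edgeR adjusted p of 0.0562.

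SIP1.1 (AT3G04090), a water channel of the endoplasmic reticulum, was the SIP with the highest level per kilobase. In Col-0, SIP1.1 was at 46.1, 54.7 and 64.6 CPM in the control, at 45.7, 49.9 and 54.2 in drought, at 67.4, 74.2 and 78.97 in nitrogen deficiency and at 52.95, 54.1 and 58.5 in combined stress. In Bur-0, SIP1.1 was at 64.5, 66.7, 69.5, 72.2 and 74.1 CPM in the 5 control libraries, at 61.6, 65.6 and 73.6 in drought, at 86.5, 94.7 and 103 in nitrogen deficiency and at 66.3, 77.3 and 107 in combined stress. Nitrogen deficiency lay above every control library in both accessions. In Cvi-0, SIP1.1 was at 52.6, 64.6 and 83.5 CPM in the control, at 53.5, 60.1 and 65.6 in drought, at 85.7, 91.3 and 108 in nitrogen deficiency and at 63.6, 71.8 and 80.5 in combined stress. In Sha, SIP1.1 was at 46.9, 54.1 and 59.6 CPM in the control, at 49.9, 52.7 and 53.2 in drought, at 57.5, 70.1 and 86.4 in nitrogen deficiency and at 50.7, 55.3 and 59.5 in combined stress. In Tsu-0, SIP1.1 was at 50.5, 53.3 and 55.9 CPM in the control, at 44.03, 50.6 and 58.1 in drought, at 70.4, 74.1 and 85.1 in nitrogen deficiency and at 58.6, 65.7 and 70.8 in combined stress. The separation held in 4 of 5 accessions, with overlap in Sha. SIP1.1 rose by 0.47 ± 0.04 in nitrogen deficiency (edgeR adjusted p = 1.04e-21), with 0.43 to 0.51 in each accession, and by 0.13 ± 0.04 in combined stress. Combined stress was 0.34 ± 0.04 below nitrogen deficiency, and the drought value of −0.09 ± 0.04 was not called (edgeR adjusted p = 0.071).

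SIP2.1 (AT3G56950), also of the endoplasmic reticulum, had its highest median in nitrogen deficiency in every accession. In Col-0, SIP2.1 was at 9.56, 10.9 and 20.5 CPM in the control, at 8.81, 10.3 and 13.6 in drought, at 16.5, 20.6 and 22.1 in nitrogen deficiency and at 13.97, 14.7 and 16.5 in combined stress. In Bur-0, SIP2.1 was at 10.4, 10.7, 10.7, 11.2 and 14.1 CPM in the 5 control libraries, at 8.79, 11.3 and 14.9 in drought, at 14.9, 20.1 and 23.7 in nitrogen deficiency and at 13.9, 15.999 and 23.4 in combined stress. A Col-0 control library at 20.5 CPM overlapped nitrogen deficiency, and in Bur-0 every nitrogen-deficient library lay above the control. In Cvi-0, SIP2.1 was at 12.4, 14.04 and 21.7 CPM in the control, at 11.7, 12.7 and 13.8 in drought, at 20.8, 22.2 and 29.1 in nitrogen deficiency and at 15.5, 18.6 and 21.2 in combined stress. In Sha, SIP2.1 was at 10.9, 12.5 and 15.6 CPM in the control, at 14.02, 15.2 and 15.8 in drought, at 17.04, 23.1 and 29.3 in nitrogen deficiency and at 12.7, 15.5 and 16.9 in combined stress. In Tsu-0, SIP2.1 was at 8.72, 10.5 and 12.1 CPM in the control, at 10.5, 11.2 and 11.7 in drought, at 14.6, 17.8 and 33.7 in nitrogen deficiency and at 10.97, 14.4 and 15.9 in combined stress. Nitrogen deficiency was above every control library in Bur-0, Sha and Tsu-0. SIP2.1 rose 1.72-fold in nitrogen deficiency (0.78 ± 0.06, edgeR adjusted p = 1.24e-22) and by 0.37 ± 0.06 in combined stress. The gene overlaps AT3G56940 by 147 bases on the other strand, a gene with a median of 2309 CPM that fell by 0.79 ± 0.05 in nitrogen deficiency, so the 2 moved in opposite directions and the assignment of reads in the overlap is uncertain.

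SIP1.2 (AT5G18290) was called in nitrogen deficiency within 3 accessions, in opposite directions, and not on average. In Col-0, SIP1.2 was at 3.55, 4.24 and 5.13 CPM in the control, at 2.41, 3.51 and 4.67 in drought, at 3.57, 3.69 and 5.08 in nitrogen deficiency and at 2.38, 3.65 and 4.34 in combined stress. In Bur-0, SIP1.2 was at 4.28, 4.82, 5.26, 5.37 and 5.50 CPM in the 5 control libraries, at 4.51, 5.44 and 6.32 in drought, at 4.59, 5.07 and 6.99 in nitrogen deficiency and at 2.62, 4.19 and 5.32 in combined stress. All groups overlapped here. In Cvi-0, SIP1.2 was at 2.43, 3.19 and 3.39 CPM in the control, at 2.42, 3.40 and 4.54 in drought, at 1.81, 2.09 and 2.84 in nitrogen deficiency and at 1.52, 2.36 and 2.91 in combined stress. In Sha, SIP1.2 was at 6.30, 9.07 and 12.3 CPM in the control, at 4.55, 5.80 and 7.59 in drought, at 4.89, 6.91 and 8.34 in nitrogen deficiency and at 4.34, 5.63 and 10.06 in combined stress. In Tsu-0, SIP1.2 was at 4.04, 5.65 and 6.67 CPM in the control, at 4.22, 6.42 and 8.88 in drought, at 7.18, 9.05 and 9.56 in nitrogen deficiency and at 4.18, 5.56 and 6.94 in combined stress. Tsu-0 nitrogen deficiency was above every Tsu-0 control library. In nitrogen deficiency SIP1.2 fell by 0.50 in Cvi-0 and 0.40 in Sha and rose by 0.64 in Tsu-0, each called by edgeR, with an average of −0.04 ± 0.07 (edgeR adjusted p = 0.566). In combined stress it fell by 0.30 ± 0.07 on average. It overlaps AT5G18300 by 444 bases on the other strand, which had a median of 0.834 CPM and was not called in Tsu-0 nitrogen deficiency (0.43, edgeR adjusted p = 0.219).

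**Figure D4:**
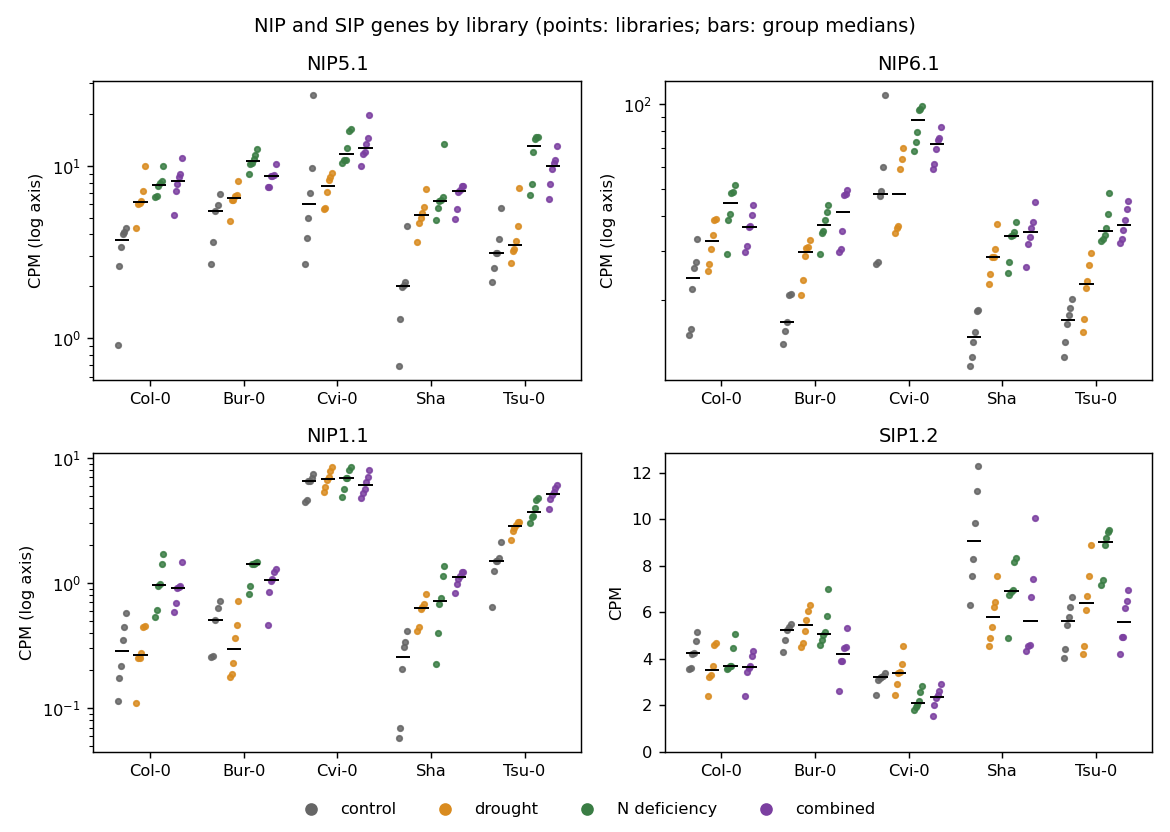
CPM of NIP5.1, NIP6.1 and NIP1.1 (log axis) and of SIP1.2 (linear axis) in each library, by accession and treatment, as points with the group median as a line. NIP1.1 lies at group medians of 6.03 to 6.89 CPM in Cvi-0 whatever the treatment, and SIP1.2 stands apart upward in nitrogen deficiency in Tsu-0 only.

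Within single accessions, nitrogen deficiency called 13 members in Col-0, 20 in Bur-0, 15 in Cvi-0, 18 in Sha and 24 in Tsu-0 of 27 tested. The backgrounds were 42.5%, 41.5%, 42.5%, 38.3% and 50.8% of all genes, in that order. Combined stress called 12, 12, 13, 11 and 17 members, with backgrounds of 31.2%, 32.2%, 19.7%, 17.6% and 37.5%. Drought called 7, 3, 3, 9 and 6, with backgrounds of 6.17%, 3.27%, 1.62%, 1.72% and 5.85%. The 9 in Sha were 7 higher, where 0.999% of all genes were, and 2 lower, where 0.719% were. The 3 in Cvi-0 were all lower, where 0.964% of genes were, and without the 4 libraries PIP1.4 and TIP2.1 were no longer called there.

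**Figure D5:**
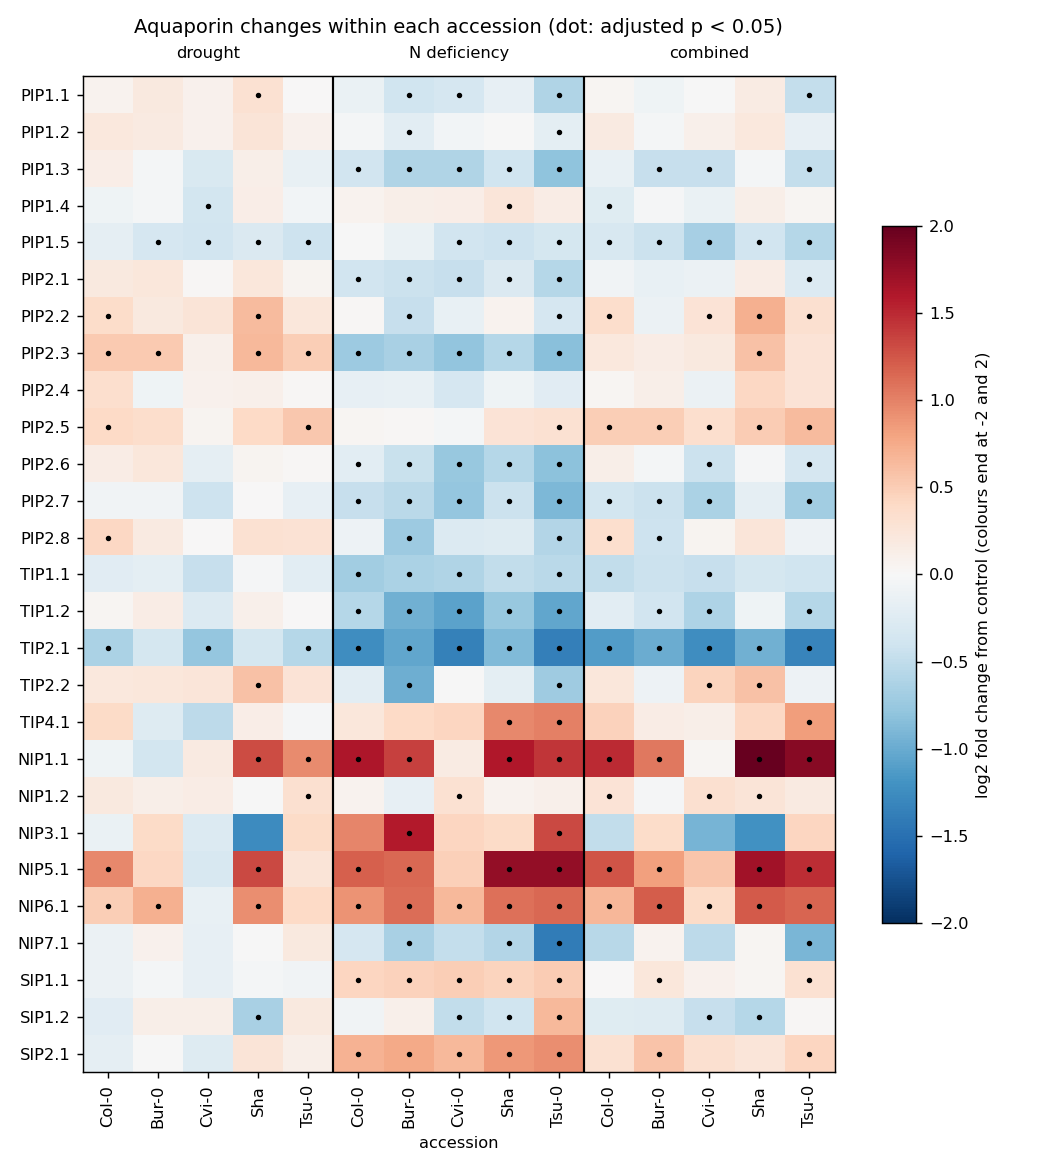
Log2 change of each tested member in each accession for drought, nitrogen deficiency and combined stress against that accession's control, as a heat map in which marked cells have an edgeR adjusted p below 0.05. NIP5.1, NIP6.1 and SIP2.1 are higher and TIP1.2 and TIP2.1 lower across nitrogen deficiency, and NIP1.1 in Cvi-0 is at 0.17.

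Whether the size of a change depended on the accession was tested with an interaction over all 5 accessions. For nitrogen deficiency 9 members passed, against 16.1% of all genes. They were PIP2.6, SIP1.2, NIP1.1, TIP2.2, PIP2.2, PIP1.5, PIP1.1, PIP2.8 and NIP5.1. PIP2.6 fell in every accession but by 0.21 in Col-0 and 0.82 in Tsu-0 (edgeR adjusted p = 3.74e-05), and 15 of 16 alternative settings kept the call. SIP1.2, with its opposite directions, was called under all 16 (edgeR adjusted p = 6.63e-05). NIP1.1 rose by 1.37 to 1.62 in 4 accessions and was at 0.17 in Cvi-0 (edgeR adjusted p = 0.00115). TIP2.2 fell by 0.98 in Bur-0 and 0.72 in Tsu-0 and was at −0.01 to −0.22 elsewhere (edgeR adjusted p = 0.00175). PIP2.2 was called lower in Bur-0 (−0.46) and Tsu-0 (−0.33), at an edgeR interaction adjusted p of 0.0107. The call for NIP5.1 (edgeR adjusted p = 0.0475) was kept by 3 of 16 settings and was lost without the 4 libraries, and that for PIP2.8 (edgeR adjusted p = 0.0473) by 7 of 16.

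For combined stress 7 members passed the interaction test, against 13.5% of all genes. NIP1.1 led, at 1.05 to 2.19 in 4 accessions and 0.03 in Cvi-0 (edgeR adjusted p = 5.67e-06), and was called in all 16 settings. PIP2.6 ranged from −0.43 in Cvi-0 to 0.11 in Col-0, PIP2.2 from −0.11 in Bur-0 to 0.72 in Sha and PIP1.1 from −0.47 in Tsu-0 to 0.16 in Sha. NIP6.1 was called higher in each accession, by 0.38 in Cvi-0 and 1.22 in Sha. Without the 4 libraries 11 members passed, and the share of all genes that passed in that fit is not given here. PIP2.8 rose by 0.34 in Col-0, or 0.30 with an edgeR adjusted p of 0.051 without those libraries, and fell by 0.41 in Bur-0 (edgeR interaction adjusted p = 0.0144). TIP2.2 had an edgeR adjusted p of 0.0343 that 10 of 16 settings kept.

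For drought 2 members passed, against 0.619% of all genes. NIP6.1 was at −0.15 in Cvi-0 and rose by 0.50 in Col-0, 0.70 in Bur-0 and 0.93 in Sha (edgeR adjusted p = 0.00672). The Cvi-0 value became 0.29 without the 4 libraries and the interaction was no longer called. SIP1.2 (edgeR adjusted p = 0.0365) fell by 0.66 in Sha and was between −0.23 and 0.20 elsewhere, and only 5 of 16 settings kept that call.

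With full water and nitrate, all 27 members differed between accessions by the edgeR test over the 5 controls, where 75.6% of all genes did. Against Col-0, Bur-0 had 5 members higher and 14 lower, where 16.3% of all genes were higher and 20.5% lower, and Cvi-0 had 11 higher and 6 lower, where 20.8% and 22.1% were. Sha had 4 higher and 7 lower, where 15.2% and 19.8% of all genes were, and Tsu-0 had 8 higher and 6 lower, where 14.4% and 19.3% were. Among the 14 lower in Bur-0 were the abundant PIP2.1 (−0.72 ± 0.09), TIP1.1 (−0.91 ± 0.19) and TIP2.1 (−0.87 ± 0.19). The lowest median of the 20 groups was that of Bur-0 in nitrogen deficiency for PIP1.1, PIP1.2, PIP1.3, PIP2.1, PIP2.2, PIP2.7, TIP1.1, TIP1.2, TIP2.1 and TIP2.2.

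The largest difference was that of NIP1.1 in Cvi-0, 18.3-fold above Col-0 (4.19 ± 0.27, edgeR adjusted p = 1.48e-26), and Tsu-0 was 4.35-fold above Col-0 (2.12 ± 0.29). TIP2.2 was lower than in Col-0 in all 4 other accessions, by 1.75 ± 0.16 in Bur-0, 1.31 ± 0.15 in Cvi-0, 2.42 ± 0.16 in Sha and 1.67 ± 0.15 in Tsu-0. TIP4.1 was 7.02-fold higher in Cvi-0 (2.81 ± 0.28). PIP2.8 was higher in Bur-0 by 1.62 ± 0.14, and NIP7.1 and SIP1.2 were higher in Sha by 1.80 ± 0.26 and 1.11 ± 0.15. NIP6.1 in Cvi-0 was higher by 1.24 ± 0.15, or 0.81 without the 4 libraries. The NIP5.1 difference in Cvi-0 of 1.43 ± 0.28 was 0.57 without them, with an edgeR adjusted p of 0.0646. A sequence difference between an accession and the shared gene models can also move a level, and its part was not tested.

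Other proteins act on aquaporins or share their membranes, and 22 such genes, all tested, were set beside the family. In nitrogen deficiency 13 were higher and 5 lower, where 36.6% and 31.4% of all genes were, with a median log2 change of 0.158 beside 0.045 for all genes. XND1, a NAC factor of xylem cells that in roots affects hydraulic conductivity and PIP activity, rose by 1.72 ± 0.07 (edgeR adjusted p = 6.31e-41). UBC32 and RMA2, a conjugating enzyme and a ligase of protein degradation at the endoplasmic reticulum, rose by 0.61 and 0.78. AVP1, the proton pump of the vacuolar membrane that holds the TIPs, fell by 0.63. Drought gave 3 higher and 3 lower, beside 10.6% and 13.1% of all genes, including SYP121, a syntaxin that brings PIPs to the plasma membrane (−0.38), and XND1 (0.42).

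Combined stress gave 9 higher and 4 lower in that list, beside 30.6% and 26.6% of all genes, with XND1 at 1.15 and AVP1 at −0.46. Against nitrogen deficiency 2 were higher and 9 lower, beside 19.6% and 21.2% of all genes, with XND1 at −0.57 and VHA-A, a subunit of the vacuolar proton ATPase, at 0.22. Against drought 10 were higher and 2 lower, beside 25.1% and 20.9% of all genes. The boron exporters BOR1 and BOR2, named here after their values were seen because the boric acid channels had moved, rose in nitrogen deficiency by 0.48 ± 0.09 and 0.98 ± 0.12 (edgeR adjusted p = 2.51e-06 and 7.26e-13). In combined stress they rose by 0.49 ± 0.09 and 0.46 ± 0.12.

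Levels of many members also differed between the codes in the sample names. The median over the 20 groups of the log2 ratio of P3ID34 to P3ID33 was −0.436 for PIP2.1, and its P3ID34 libraries lay below all P3ID33 libraries in 19 of 20 groups. PIP1.4 and PIP2.6 showed this in 17 of 20 groups, and all 13 PIPs had a negative median, from −0.141 for PIP1.5 to −0.436. Outside the PIPs, NIP6.1 had a median of −0.371 with this separation in 15 of 20 groups and TIP2.1 one of −0.361 in 9 of 20, while the highest median was 0.109 for TIP4.1. SIP1.1 was at −0.019 and NIP1.1 at −0.001. The share of all genes with such a difference between the codes is not given here. Whether the difference is particular to these members therefore cannot be stated. Overlaps between treatments are described above with both codes pooled unless a code is named, whereas the fits carried the code as a term. With either code alone every called member kept its sign. That was 15 of 15 in drought, 24 of 24 in nitrogen deficiency and 21 of 21 in combined stress. These members were called from both codes together, so the agreement in sign is not independent support. Within P3ID33 alone 13, 23 and 19 of these members were called, and within P3ID34 alone 8, 22 and 14. The shares of all genes called within a single code are not given here either.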

How the data were processed

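RNA was measured in rosettes of 5 accessions under 4 treatments. Per the labels' protocols, an RNeasy Plant Mini kit gave the RNA and a TruSeq Stranded mRNA kit the libraries. Trimmomatic 0.36 and HISAT2 are the tools that the submitters' processing notes name, and the build, the counting tool and its strand setting are not given in those sources. The authors deposited whole-number counts per gene without normalization, 0 columns of which matched no sample. Of 32833 genes, 4657 had no count. No pair within a group differed by as little as sampling alone would give (lowest mean chi-square 3.07).

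Counts were fitted in R 4.3.3 with edgeR 4.0.16 (TMM, filterByExpr by group, quasi-likelihood test) on all libraries, with 20 groups and the experiment code as terms, and adjusted over the 20025 genes kept. The procedure was run on simulated counts with known changes in the drought libraries of every accession. Those counts carried no difference between accessions or codes, and the outcome is not given here. The alternatives used limma 3.58.1 (voom), DESeq2 1.42.0, RLE size factors, no filter, no code, either code alone, the letter as a block, each letter left out, the 4 libraries left out and a covariate for transcript length. Replicate letters were not treated as pairing the libraries. Over 177 pairs of the same letter the median correlation of deviations was −0.007, and 49 were over 0.1. Pairs of different letters were not compared, so these values do not show whether the letters pair libraries. The ratio between codes used CPM + 0.01. Lengths, promoters and coding sequences came from RefSeq's TAIR10.1 annotation, which gave a length for 99.5% of the tested genes, and per-kilobase levels used the longest transcript.

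The members and the lists of markers and of partner genes were chosen with earlier results of these data known. Values of every group are given for the 2 members of each subfamily with the highest level per kilobase, the 2 of lowest p in each interaction and in the control accession test, the member of lowest p in each averaged comparison, and, chosen after their values were seen, TIP2.1 and NIP5.1. Of the partner genes, up to 4 of lowest adjusted p per averaged comparison could be named, beside BOR1 and BOR2.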

Additional observations from a re-analysis of the deposited data

Results flagged for a closer look

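In 22 of 280 groups of 14 members with full values, the highest or lowest library stood apart from the rest of its group by Dixon's 95% limit, and chance flags about 1 in 20 groups. TIP2.1 and NIP5.1, which also have full values, were not screened. No explanation was weighed for any of them. TIP2.2 was high in Col-0 W-N- a (194 CPM, group median 161), Bur-0 W+N- d (28.5), Bur-0 W-N- c (62.9), Tsu-0 W+N+ d (55.1) and Tsu-0 W-N+ d (66.5). SIP2.1 was high in Col-0 W+N+ f (20.5 CPM, median 10.9), Cvi-0 W+N+ c (21.7), Bur-0 W+N+ a (14.1), Tsu-0 W+N- d (33.7) and Bur-0 W-N- c (23.4). TIP1.1 was high in Bur-0 W+N- d (185 CPM, median 130), Cvi-0 W+N- a (382), Cvi-0 W+N+ c (718) and Sha W+N+ c (434). TIP1.2 was high in Bur-0 W-N+ f (920 CPM, median 739), Cvi-0 W+N- a (619) and Cvi-0 W+N+ c (1680). PIP1.2 was high in Bur-0 W+N- d (560 CPM, median 449). NIP1.2 was high in Sha W-N- e (27 CPM, median 19.4) and Tsu-0 W+N+ d (24, median 16.6). SIP1.2 was low in Cvi-0 W+N+ b (2.43 CPM, median 3.19), and PIP1.5 in Col-0 W-N+ e (64.9 CPM, median 77.3). All 4 libraries named in the report as far from their groups are among these. In length trend, the slope of residuals on transcript length, Tsu-0 W+N- d (−0.423) and Col-0 W+N+ f (−0.353) were the lowest of the series.

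The interaction test of the difference between accessions also singled out 18 combinations of member and stress, with these edgeR adjusted p-values. In drought they were 0.00672 for NIP6.1 and 0.0365 for SIP1.2. In nitrogen deficiency they were 3.74e-05 for PIP2.6, 6.63e-05 for SIP1.2, 0.00115 for NIP1.1, 0.00175 for TIP2.2, 0.0107 for PIP2.2, 0.014 for PIP1.5, 0.0209 for PIP1.1, 0.0473 for PIP2.8 and 0.0475 for NIP5.1. In combined stress they were 5.67e-06 for NIP1.1, 0.000187 for PIP2.6, 0.000315 for PIP2.2, 0.00135 for PIP1.1, 0.00162 for NIP6.1, 0.0144 for PIP2.8 and 0.0343 for TIP2.2. Over 16 alternatives the adjusted p of NIP1.1 in combined stress ran from 9.96e-10 to 0.0404, that of NIP5.1 in nitrogen deficiency from 0.0206 to 0.589 and that of NIP6.1 in drought from 0.000717 to 0.448.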

How the results depend on the processing

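The 116 calls of members in averaged comparisons kept their sign under every alternative run, and 97 repeats were no longer called against 1759 that were. The alternatives reuse all or part of the same libraries, so they are not independent of the calls. All 116 stayed called with the length covariate, RLE size factors or the replicate block, 115 with DESeq2, 115 with voom, 114 without the filter, 112 without the 4 libraries, 108 to 112 with a letter left out, 106 without the code, 102 in P3ID33 alone and 86 in P3ID34 alone. The cause of the changes was not tested. A single code also has fewer libraries, and the part of that number was not tested either.

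In P3ID34 alone, members called were 6 higher in drought (12 in the report), 7 higher in combined stress (11), 9 lower in combined stress against drought (14) and 3 below the sum of the separate changes (5, and 3 in P3ID33). In P3ID34 alone they were also 0 for drought in Col-0, Bur-0 and Sha, 5 in Cvi-0 and 1 in Tsu-0, 7 for nitrogen deficiency in Col-0, 2, 8 and 7 for combined stress in Bur-0, Cvi-0 and Sha, and 8, 7 and 9 for the controls of Bur-0, Sha and Tsu-0 against Col-0. In P3ID33 alone drought gave 0 in Cvi-0 and 5 in Sha, and combined stress 8 in Cvi-0. Without the code, drought gave 2 in Col-0, 1 in Bur-0, 1 in Cvi-0, 4 in Sha and 3 in Tsu-0, and combined stress 8 in Cvi-0. With Cvi-0 fitted by itself, drought gave 1 and combined stress 8. The shares of all genes called under these settings are not given here. The length covariate gave 5 members lower in drought (3) and 6 for drought in Cvi-0, voom gave 4 for drought in Col-0, and 5 were called for drought in Bur-0 without the 4 libraries.

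The numbers of members that passed the interactions also moved between settings. The share of all genes called is not given here for any alternative setting. Whether a change in number is particular to these members therefore cannot be stated. For drought (2) the numbers were 4 with DESeq2, 1 without the filter, 1 without the 4 libraries and 8 with the length covariate. They were 0 without the code, in either code alone and with voom. For nitrogen deficiency (9) they were 3 without the code, 3 in P3ID33 and 5 in P3ID34. For combined stress (7) they were 4 without the code, 11 in P3ID33, 3 in P3ID34, 11 without the 4 libraries and 12 with the length covariate. Leaving out a letter gave 1 to 7 members for drought in Col-0, 1 to 3 in Bur-0, 0 to 3 in Cvi-0, 4 to 8 in Sha and 3 to 7 in Tsu-0, 8 to 11 for combined stress in Cvi-0, and 0 to 1, 5 to 9 and 5 to 11 for the 3 interactions.

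With the replicate block the averaged counts were the same as in the report (12 higher and 3 lower in drought, 9 and 15 in nitrogen deficiency, 11 and 10 in combined stress), drought in Col-0 had 6, nitrogen deficiency in Bur-0 19, combined stress in Cvi-0 12, the Cvi-0 control 15, and the interactions 2, 8 and 7. Depth limits the NIP3.1, NIP7.1, NIP1.1, TIP4.1 and PIP2.4 values, since each had medians under 1 CPM in several groups.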
